A study of Mus musculus with 14 samples.

Results

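Amino acid transporters are described here across 14 arrays of the mouse proximal epididymis. The members were all genes whose deposited symbol was Slc1a, Slc3a, Slc6a, Slc7a, Slc36a, Slc38a or Slc43a followed by a digit, which gave 64 of 21929 named genes (65 of 22206 probe sets). Of these, Slc6a19os and Slc7a6os met the rule by name and are no transporters, which left 62 carriers or carrier subunits. Slc43a3, a carrier of purine bases, belongs to the set by family, as do the Slc6 carriers of monoamines and creatine.

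RNA was measured on single-colour Clariom S arrays in 8-week-old mice, 48 h after surgery, and the values were log2 intensities. Control mice (Ctl) were compared with mice lacking Arl13b, a ciliary GTPase, through a conditional knockout restricted to Krt5-positive basal cells (cKO), so that the other cells of the tissue kept the gene. In every mouse 1 epididymis was ligated at its efferent ducts (EDL), which stops testicular sperm and fluid from entering, and the opposite one had a sham operation. The sham tissue therefore came from operated animals that also carried a ligation. Each surgery had 4 arrays in Ctl and 3 in cKO, and nothing in the labels described a pool.

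Amino acid transporters move charged, neutral and modified amino acids across membranes that these molecules cannot cross by diffusion. Members of Slc1, Slc6 and Slc38 mostly use the sodium gradient, Slc36 carriers use protons, and many Slc7 proteins are exchangers that reach the cell surface only when bound to a heavy chain, Slc3a1 or Slc3a2. In the epididymis the epithelium shapes the fluid in which sperm mature, and in several mammals that fluid is rich in glutamate and taurine.

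Array medians ranged from 6.96 to 7.06. Precision was limited by how many arrays each group had. None of 11 markers of initial segment and caput principal cells was below background in any group, background being the 95th percentile (5.31) of 1463 olfactory and vomeronasal receptor genes, while Cd3d, Cd3e, Cd3g and Ms4a1 of B and T cells were below it in all groups. After ligation 7 of the 11 principal cell markers fell and 2 rose in each genotype. Over all genes 4.57% fell and 3.32% rose in Ctl, and 4.74% fell and 5.04% rose in cKO. With any 1 array left out, 6 to 7 of these markers fell and 1 to 2 rose in Ctl. In cKO 0 rose without replicate 2 of either cKO surgery. The mean of these markers was 12.13 to 12.29 on the Ctl sham arrays and 10.15 to 10.54 on the Ctl EDL arrays. The array cKO sham replicate 2 stood apart: its mean was the lowest of all arrays for markers of macrophages (7.01), endothelium (6.33) and fibroblasts (7.65). Arl13b itself, expressed in many cell types, did not pass between genotypes in sham tissue (0.10 ± 0.14, adjusted p = 0.999, limma) or ligated tissue (-0.13 ± 0.14, adjusted p = 0.9, limma), so the probe set gave no check of the genotype labels. In whole tissue, fewer cells of a type and less RNA per cell cannot be told apart.

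Of the 64 genes, 50 had a group mean above background in at least 1 group and 47 in all 4 groups. The 14 at or below it throughout included Slc1a2, Slc1a3, Slc1a6, Slc36a3, Slc38a11, Slc3a1, Slc6a14, Slc6a19os, Slc6a2, Slc7a12, Slc7a13, Slc7a14 and Slc7a3. Among them were glial glutamate carriers (Slc1a2, Slc1a3), the noradrenaline carrier Slc6a2 and the heavy chain Slc3a1. No filter on low values was applied, so all 64 entered every comparison.

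After ligation 12 of these genes passed in at least 1 genotype, and 5 of them passed in both, in the same direction. No share of all genes was computed for these joint counts, and the shares by genotype follow. In Ctl tissue 2 genes rose, Slc38a1 and Slc6a6, against 3.32% of all genes, and 6 fell, Slc1a1, Slc7a5, Slc7a8, Slc7a1, Slc38a9 and Slc6a17, against 4.57% of all genes. In cKO tissue 5 rose, Slc6a6, Slc43a2, Slc7a7, Slc7a6 and Slc43a3, against a background of 5.04%, and 4 fell, Slc1a1, Slc7a5, Slc7a8 and Slc7a1, against a background of 4.74%. In either direction that was 12.5% of the members in Ctl (7.88% of all genes) and 14.1% in cKO (9.79% of all genes). At an unadjusted p under 0.05 there were 17 members in each genotype (26.6%), beside 20.3% of all genes in Ctl and 22.4% in cKO. Changes are EDL minus sham on the log2 scale ± the moderated standard error of limma, with two-sided p-values adjusted by Benjamini-Hochberg over all genes and a threshold of 0.05. Without cKO sham replicate 2 the cKO calls were 1 higher and 2 lower. With any 1 array left out, the Ctl calls ranged from 0 to 5 higher and from 2 to 5 lower, and there were 0 higher without any 1 of the 4 Ctl sham arrays or without Ctl EDL replicate 4 or 5.

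**Figure D1:**
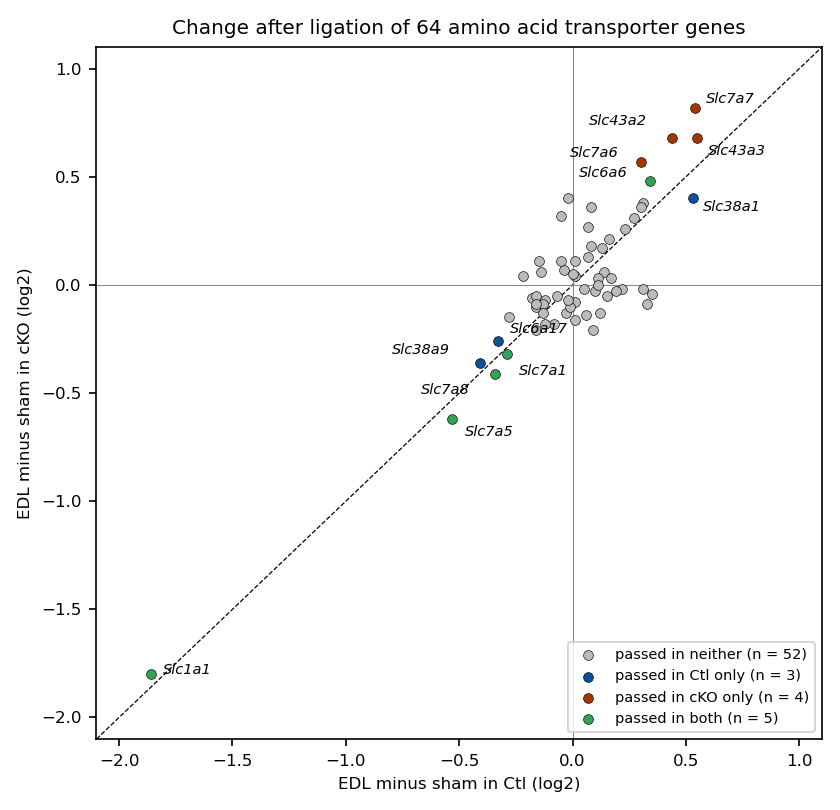
Change after ligation (EDL minus sham, log2) of each of the 64 genes in Ctl (x axis, 4 arrays against 4) and in cKO (y axis, 3 against 3), with colours for the genotype in which a gene passed and a dashed line of equal change. Slc1a1 lies at -1.86 and -1.80, apart from all other genes, and the 5 genes that passed in both genotypes lie on the same side of 0 in both.

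The median change of the members was 0.014 in Ctl and -0.021 in cKO, beside 0.008 and 0.005 for all genes. A total of 43 of 64 members (67.2%) had the same sign of change in both genotypes, beside 68.8% of all genes. The middle part of the members lay near 0, with quartiles of -0.13 and 0.17 in Ctl and -0.11 and 0.17 in cKO.

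The high-affinity carrier Slc1a1 takes up glutamate, aspartate and cysteine with sodium and had the largest change of the set. Its log2 values were 11.59, 11.60, 11.68 and 11.62 on the Ctl sham arrays and 9.87, 9.88, 9.56 and 9.75 on the Ctl EDL arrays. They were 11.61, 11.63 and 11.49 on the cKO sham arrays and 9.58, 10.09 and 9.68 on the cKO EDL arrays. Every ligated array was below every sham array, and the sham arrays of both genotypes were within a narrow band. Slc1a1 fell by 1.86 ± 0.10 in Ctl (3.62-fold, adjusted p = 2.14e-08, limma) and by 1.80 ± 0.12 in cKO (3.47-fold, adjusted p = 1.89e-07, limma). The interaction, 0.06 ± 0.16 with a 95% interval of -0.28 to 0.40, did not pass (adjusted p = 0.992, limma). Both falls passed with any single array left out. Principal cell markers fell on the same arrays, and their part in the fall was not tested.

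None of the other 6 Slc1 genes passed in either genotype. Slc1a5, which exchanges glutamine and other neutral amino acids, changed by 0.14 ± 0.12 in Ctl and 0.06 ± 0.14 in cKO, and Slc1a4, a carrier of alanine, serine and cysteine, by 0.01 ± 0.12 and -0.08 ± 0.14.

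The RefSeq promoter window (250 bases before to 50 bases after the start, build GRCm38.p6) is shown for Slc1a1, which had the largest fall, for Slc7a7, which had the largest rise, and for Slc7a11, a known target of the amino acid response whose level did not pass. Capitals mark TGATGNAA, a C/EBP-ATF response element, or its reverse complement. The windows are chr19:28834885-28835184 (plus strand), chr14:54417895-54418194 (minus strand) and chr3:50443564-50443863 (minus strand).
Slc1a1: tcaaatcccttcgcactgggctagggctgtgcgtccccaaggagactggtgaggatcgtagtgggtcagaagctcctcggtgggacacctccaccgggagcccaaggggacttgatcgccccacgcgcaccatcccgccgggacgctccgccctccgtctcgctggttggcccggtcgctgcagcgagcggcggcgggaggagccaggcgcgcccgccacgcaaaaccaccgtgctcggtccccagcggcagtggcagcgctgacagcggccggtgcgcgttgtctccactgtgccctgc
Slc7a7: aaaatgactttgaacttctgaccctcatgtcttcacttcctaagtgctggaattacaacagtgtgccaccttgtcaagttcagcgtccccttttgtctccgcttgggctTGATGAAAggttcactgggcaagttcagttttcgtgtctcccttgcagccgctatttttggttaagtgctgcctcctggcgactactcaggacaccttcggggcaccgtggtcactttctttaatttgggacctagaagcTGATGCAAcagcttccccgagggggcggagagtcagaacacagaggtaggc
Slc7a11: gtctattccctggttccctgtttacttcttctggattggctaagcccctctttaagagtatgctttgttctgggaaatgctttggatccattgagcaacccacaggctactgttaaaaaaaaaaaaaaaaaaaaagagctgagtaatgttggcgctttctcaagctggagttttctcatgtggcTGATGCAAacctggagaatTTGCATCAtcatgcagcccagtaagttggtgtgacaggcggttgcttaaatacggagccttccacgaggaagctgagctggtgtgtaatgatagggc
The Slc7a7 window held the motif at -141 and -1 from the start and the Slc7a11 window at -66 and, on the opposite strand, at -47, while the letters were not in the Slc1a1 window. Of 46 members with a window, 3 held the motif on either strand (6.52%, Slc1a4, Slc7a11 and Slc7a7), beside 4.51% of 27025 genes. The ETS motif CCGGAAGT, searched on both strands, was in none of the 46 windows and in 4.31% of all genes. A second Slc7a7 start shares the site at -1, which lies at -243 from that start. Slc7a7 starts whose window lacked the motif, if any, were left out, whereas Slc1a1 and Slc7a11 windows were kept with or without it. The Slc7a7 windows described here were therefore selected for holding the motif. A match is a description of the letters only, and a missing match says only that the letters are not in that window.

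Light chains of the heteromeric carriers changed in both directions. Slc7a5 and Slc7a8, exchangers of large neutral amino acids, fell in both genotypes, while Slc7a7 and Slc7a6, which release cationic amino acids in exchange for neutral ones, rose in cKO. All of them pair with Slc3a2.

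Slc7a5 read 12.57, 12.41, 12.53 and 12.57 on the Ctl sham arrays and 12.11, 11.95, 12.02 and 11.89 on the Ctl EDL arrays. It read 12.63, 12.55 and 12.55 on the cKO sham arrays and 11.78, 12.19 and 11.90 on the cKO EDL arrays. No ligated array reached a sham array. Slc7a5 fell by 0.53 ± 0.09 in Ctl (1.44-fold, adjusted p = 0.00159, limma) and by 0.62 ± 0.10 in cKO (1.54-fold, adjusted p = 0.00139, limma), and both calls passed with any single array left out.

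Slc7a8 read 11.81, 11.71, 11.88 and 11.82 on the Ctl sham arrays against 11.49, 11.38, 11.60 and 11.39 on the Ctl EDL arrays. Its cKO arrays read 11.87, 11.71 and 12.00 after sham surgery against 11.27, 11.52 and 11.56 after ligation. The surgeries did not overlap in either genotype. Slc7a8 fell by 0.34 ± 0.09 in Ctl (adjusted p = 0.0272, limma) and by 0.41 ± 0.10 in cKO (adjusted p = 0.0195, limma). The Ctl call was lost without any 1 of 5 arrays (Ctl sham replicates 2, 4 and 5, Ctl EDL replicates 3 and 5, adjusted p up to 0.0835), and the cKO call without replicate 2 of either cKO surgery or cKO sham replicate 4 (up to 0.0912).

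Slc7a7 had the largest rise of the set. It read 6.79, 6.92, 7.28 and 7.27 on the Ctl sham arrays against 7.26, 7.33, 7.96 and 7.86 on the Ctl EDL arrays. On the cKO arrays it read 6.83, 6.66 and 6.99 after sham surgery against 7.72, 7.60 and 7.60 after ligation. The groups were apart in cKO, whereas in Ctl 1 ligated array lay just below the 2 highest sham arrays. The change was 0.82 ± 0.18 in cKO (1.76-fold, adjusted p = 0.0116, limma) and 0.54 ± 0.16 in Ctl, which missed the threshold (adjusted p = 0.0531, limma). The difference between genotypes, 0.28 ± 0.24, did not pass (95% interval -0.24 to 0.80). The cKO call passed with any single array left out, at an adjusted p of up to 0.0471.

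Slc7a6 read 7.21, 7.52, 7.35 and 7.48 on the Ctl sham arrays against 7.53, 7.58, 7.89 and 7.76 on the Ctl EDL arrays. The cKO arrays read 6.88, 7.23 and 7.25 after sham surgery against 7.41, 7.86 and 7.79 after ligation. All ligated arrays were above the sham arrays of their genotype. The change was 0.57 ± 0.14 in cKO (adjusted p = 0.0214, limma) and 0.30 ± 0.12 in Ctl (adjusted p = 0.172, limma), and without cKO sham replicate 2, the lowest array, the cKO value was 0.45 (adjusted p = 0.108). The call was also lost without cKO EDL replicate 3 or 4. The neighbouring gene Slc7a6os changed by 0.27 ± 0.09 in cKO (adjusted p = 0.0853, limma).

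**Figure D2:**
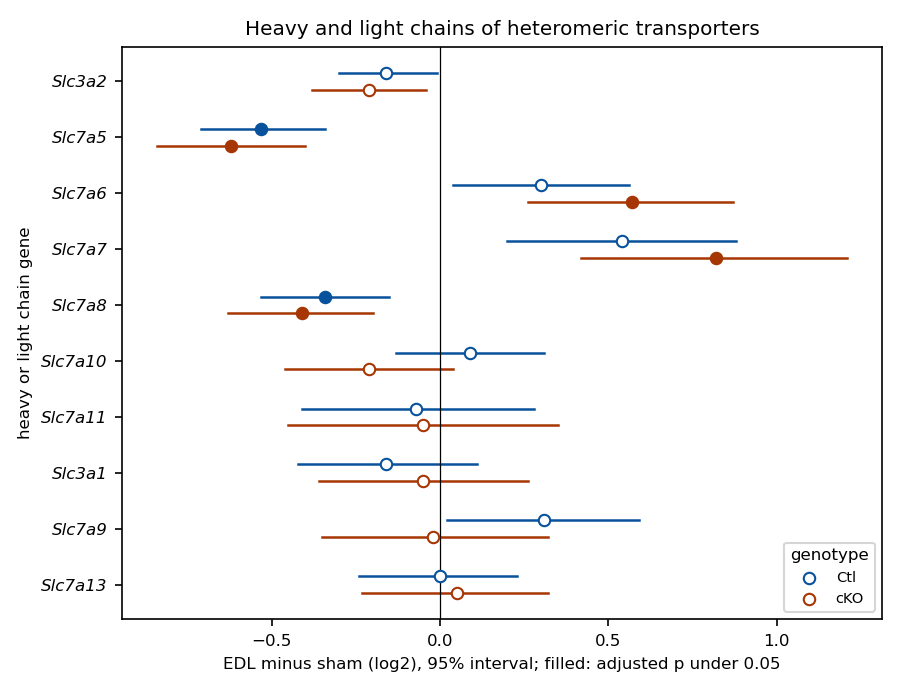
Change after ligation (EDL minus sham, log2) with its 95% interval for 2 heavy chains and 8 light chain genes, in Ctl (blue) and cKO (orange), filled where the adjusted p was under 0.05. The intervals of Slc7a5 and Slc7a8 lie below 0 and those of Slc7a6 and Slc7a7 above 0 in both genotypes.

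The shared heavy chain Slc3a2 read 12.64, 12.51, 12.60 and 12.67 on the Ctl sham arrays against 12.50, 12.39, 12.42 and 12.47 on the Ctl EDL arrays. Its cKO values were 12.66, 12.60 and 12.63 against 12.31, 12.53 and 12.42. All ligated arrays were below the sham arrays of their genotype, yet the changes of -0.16 ± 0.07 and -0.21 ± 0.08 did not pass (adjusted p = 0.198 and 0.116, limma). Slc7a11, the cystine and glutamate exchanger that also pairs with Slc3a2, changed by -0.07 ± 0.16 in Ctl and -0.05 ± 0.19 in cKO, and its sham and ligated arrays overlapped. Slc7a10, which carries small neutral amino acids, changed by 0.09 ± 0.10 and -0.21 ± 0.12.

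The second heavy chain, Slc3a1, was at background, with group means of 4.06 to 4.22, while its cystine carrying partner Slc7a9 read 6.57 to 6.89. Slc7a9 changed by 0.31 ± 0.13 in Ctl (adjusted p = 0.209, limma) and -0.02 ± 0.15 in cKO (adjusted p = 0.975, limma). Slc7a13, another partner of Slc3a1 in the mouse kidney, stayed below background.

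Among carriers that work without a heavy chain, Slc7a1, the main uptake route for arginine and lysine in many cells, read 10.65, 10.71, 10.47 and 10.56 on the Ctl sham arrays against 10.47, 10.27, 10.28 and 10.21 on the Ctl EDL arrays. The values in cKO were 10.69, 10.73 and 10.61 against 10.33, 10.44 and 10.32. The surgeries did not overlap in cKO, and in Ctl 1 ligated array equalled the lowest sham array at the printed precision. Slc7a1 fell by 0.29 ± 0.08 in Ctl (1.22-fold, adjusted p = 0.0325, limma) and by 0.32 ± 0.09 in cKO (1.25-fold, adjusted p = 0.037, limma). The Ctl call was lost without any 1 of 6 Ctl arrays (all but Ctl sham replicate 4 and Ctl EDL replicate 2) and the cKO call without any 1 of 5 cKO arrays (all but cKO EDL replicate 3).

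Slc7a2, which also takes up cationic amino acids, changed by 0.30 ± 0.19 in Ctl and 0.36 ± 0.21 in cKO, and neither passed. Slc7a4, a relative of these carriers without a settled substrate, changed by -0.22 ± 0.14 and 0.04 ± 0.17.

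Among Slc6 genes the taurine carrier Slc6a6 rose in both genotypes. It read 8.61, 8.55, 8.64 and 8.57 on the Ctl sham arrays against 8.83, 9.13, 8.89 and 8.86 on the Ctl EDL arrays. In cKO it read 8.41, 8.52 and 8.43 after sham surgery against 9.18, 8.82 and 8.80 after ligation. Every ligated array was above every sham array of either genotype. Slc6a6 rose by 0.34 ± 0.09 in Ctl (1.26-fold, adjusted p = 0.0376, limma) and by 0.48 ± 0.11 in cKO (1.40-fold, adjusted p = 0.0108, limma). The Ctl call was lost without any 1 of 7 of the 8 Ctl arrays (all but Ctl EDL replicate 2), with adjusted p up to 0.118, and with the arrays centred on their medians. The cKO call was lost at an adjusted p of 0.0502 without cKO sham replicate 2.

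Slc6a17, a carrier of neutral amino acids known from synaptic vesicles, read 9.32, 9.60, 9.43 and 9.50 on the Ctl sham arrays against 9.14, 8.93, 9.32 and 9.16 on the Ctl EDL arrays. The cKO sham arrays read 9.41, 9.50 and 9.24 against 9.13, 9.20 and 9.03 on the cKO EDL arrays. The highest ligated Ctl array met the lowest sham array, with a gap smaller than the printed precision. Slc6a17 fell by 0.33 ± 0.09 in Ctl (adjusted p = 0.0467, limma), a call lost without any 1 of 11 arrays (all but Ctl sham replicate 2, Ctl EDL replicate 4 and cKO sham replicate 4), and changed by -0.26 ± 0.11 in cKO (adjusted p = 0.164, limma). The other 19 Slc6 genes did not pass in either genotype; the creatine carrier Slc6a8 changed by 0.27 ± 0.11 and 0.31 ± 0.13.

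Within Slc38, 1 gene rose and 1 fell in Ctl, and none passed in cKO. Slc38a1, a sodium-coupled glutamine carrier, read 7.13, 7.02, 7.01 and 7.05 on the Ctl sham arrays against 7.13, 7.59, 7.59 and 8.0 on the Ctl EDL arrays. In cKO it read 7.25, 7.26 and 6.87 against 7.60, 7.42 and 7.56. In Ctl 3 ligated arrays were above all sham arrays and the other one was among them. Slc38a1 rose by 0.53 ± 0.14 in Ctl (1.44-fold, adjusted p = 0.0375, limma) and changed by 0.40 ± 0.17 in cKO (adjusted p = 0.17, limma). The Ctl call was lost without any 1 of 8 arrays (all Ctl arrays but Ctl EDL replicate 2, and cKO EDL replicate 4), with adjusted p up to 0.101.

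Slc38a9, the lysosomal arginine sensor of the mTORC1 pathway, read 9.79, 9.47, 9.81 and 10.03 on the Ctl sham arrays against 9.33, 9.17, 9.49 and 9.46 on the Ctl EDL arrays. In cKO it read 9.81, 9.46 and 9.63 against 9.32, 9.24 and 9.26. The groups were apart in cKO, and in Ctl the lowest sham array lay just below 1 ligated array. Slc38a9 fell by 0.41 ± 0.11 in Ctl (1.33-fold, adjusted p = 0.0404, limma), a call lost without any 1 of 10 arrays (all but Ctl sham replicate 3, Ctl EDL replicate 4 and cKO sham replicates 2 and 3), and changed by -0.36 ± 0.13 in cKO (adjusted p = 0.113, limma). Slc38a2, whose mRNA rises in amino acid starvation in cultured cells, changed by -0.13 ± 0.08 and -0.09 ± 0.09, and Slc38a5, an exchanger of glutamine for protons, by -0.03 ± 0.06 and -0.13 ± 0.07.

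All 3 Slc43 genes were above 0 in both genotypes, and 2 of them passed in cKO. Slc43a2, which lets branched-chain amino acids and phenylalanine pass without sodium, read 7.63, 7.70, 7.62 and 7.30 on the Ctl sham arrays against 7.67, 7.98, 8.39 and 7.95 on the Ctl EDL arrays. Its cKO arrays read 7.38, 7.64 and 7.61 against 8.23, 8.20 and 8.24. The cKO groups were apart and 1 Ctl ligated array lay among the sham arrays. Slc43a2 rose by 0.68 ± 0.15 in cKO (1.60-fold, adjusted p = 0.0114, limma) and changed by 0.44 ± 0.13 in Ctl (adjusted p = 0.0577, limma). Without cKO sham replicate 2 the cKO value was 0.59 (adjusted p = 0.062).

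Slc43a3 read 8.21, 8.51, 8.43 and 8.19 on the Ctl sham arrays against 8.54, 8.82, 9.04 and 9.13 on the Ctl EDL arrays. In cKO it read 7.68, 8.33 and 8.36 against 8.60, 8.95 and 8.86. No sham array reached a ligated array of its genotype, and cKO sham replicate 2 was far below the others. Slc43a3 rose by 0.68 ± 0.19 in cKO (adjusted p = 0.0324, limma), which became 0.46 (adjusted p = 0.143) without that array. It changed by 0.55 ± 0.16 in Ctl (adjusted p = 0.0513, limma), which passed under 8 of 10 other settings that kept all arrays of the comparison. With 1 array left out, the Ctl change passed in 2 of 14 fits (adjusted p up to 0.154, limma). The cKO call was also lost without cKO EDL replicate 3 or 4. The third gene, Slc43a1, changed by 0.31 ± 0.16 and 0.38 ± 0.19. None of the 4 proton-coupled Slc36 genes passed, and Slc36a1, which exports amino acids from lysosomes, changed by 0.23 ± 0.13 and 0.26 ± 0.15.

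**Figure D3:**
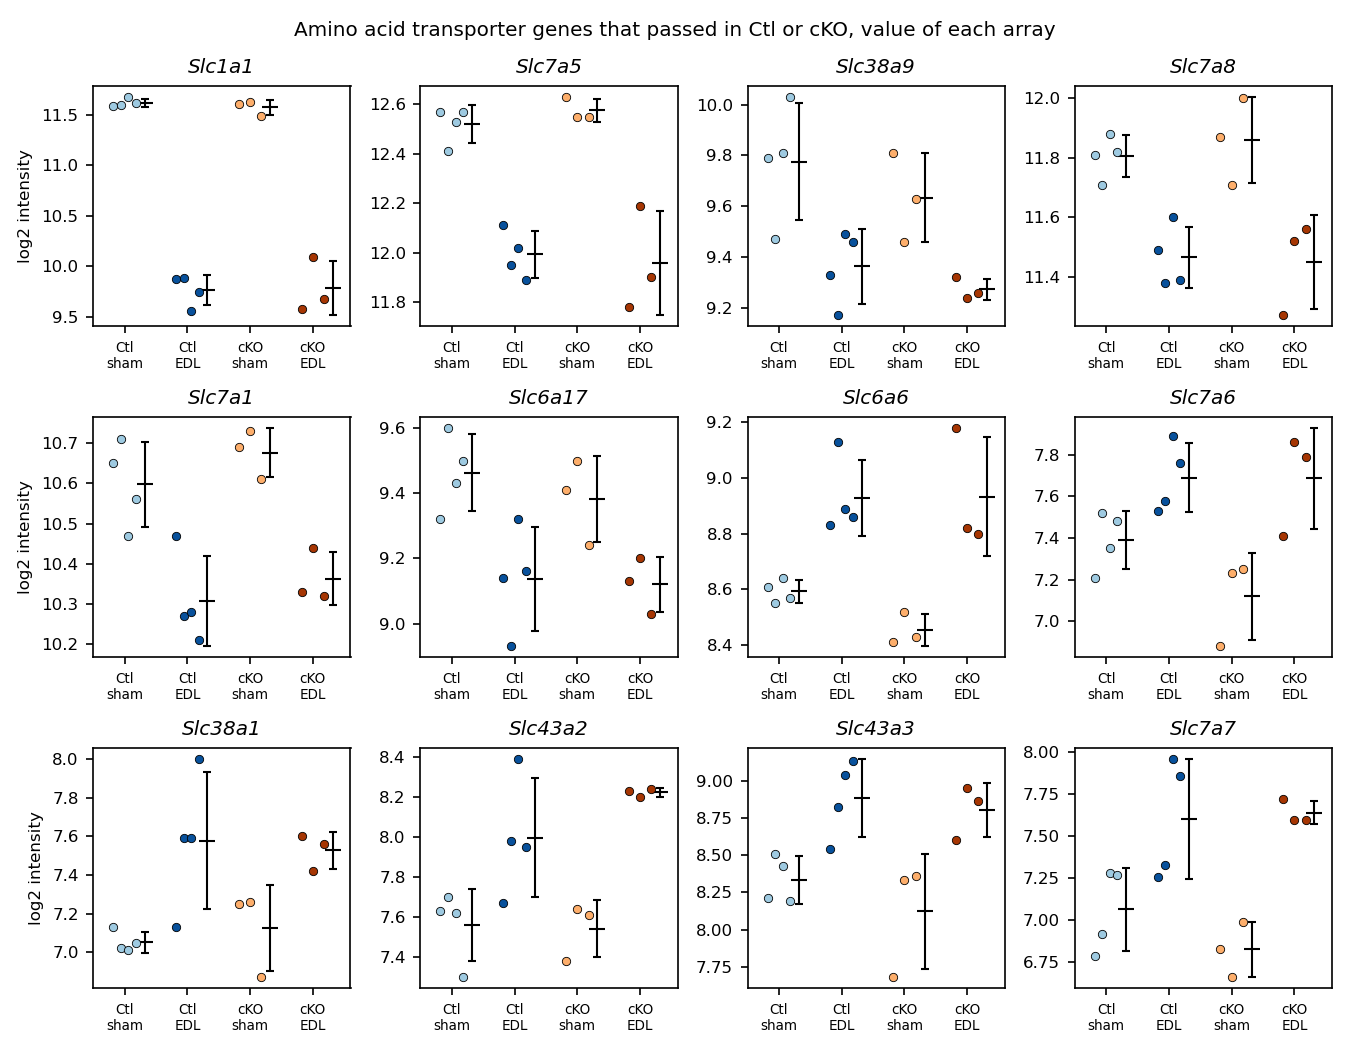
Log2 intensity on each array (points) by group, with mean and SD beside the points (4 arrays per Ctl group, 3 per cKO group), for the 12 genes that passed in either genotype, each panel on its own scale. Slc1a1 drops from about 11.6 to below 10.1 in both genotypes, while the other 11 genes move by less than 1 unit.

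Counted by overlap, 6 members were lower on all Ctl EDL arrays than on all Ctl sham arrays, against 7.41% of all genes, and 3 were higher, against 6.69%. In cKO, with fewer arrays, 8 were lower (12.4% of all genes) and 12 higher (13.4%). Slc6a5, a glycine carrier, was one of the 6 in Ctl, with 5.55, 5.58, 5.78 and 5.69 on the sham arrays against 5.53, 5.48, 5.52 and 5.50 on the ligated arrays. These values lay close to background, and the change of -0.15 ± 0.13 did not pass (adjusted p = 0.593, limma).

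Markers of several cell types rose on the same arrays as these genes. The share of all genes that rose was 3.32% in Ctl and 5.04% in cKO. Of 12 macrophage and monocyte markers 10 were higher after ligation in Ctl and 12 in cKO, with medians of 0.99 and 1.26. Their log2 summed intensity was 11.47 to 12.05 on the Ctl sham arrays and 12.58 to 13.15 on the Ctl EDL arrays, and 11.31 to 12.00 against 12.91 to 13.05 in cKO. Without cKO sham replicate 2 these counts were 12 and 10. Of 8 markers of basal cells, the cells that lack Arl13b in cKO, 2 rose in Ctl and 5 in cKO. With any 1 array left out the counts were 1 to 2 in Ctl and 4 to 5 in cKO. None of the 8 passed for the interaction or between genotypes in sham or ligated tissue (limma). The basal keratin Krt5 rose by 0.44 ± 0.09 in Ctl and 0.89 ± 0.11 in cKO (adjusted p = 0.00956 and 0.000103, limma), and Krt14 by 0.67 ± 0.17 and 1.31 ± 0.19 (adjusted p = 0.023 and 0.000566, limma). The log2 summed intensity of the basal list was 12.03 to 12.16 on the Ctl sham arrays and 12.27 to 12.48 on the Ctl EDL arrays, and 11.90 to 12.13 against 12.48 to 12.59 in cKO. Krt14 in Ctl lost its call without any 1 of 4 Ctl arrays (replicate 2 of either surgery, Ctl sham replicate 5 and Ctl EDL replicate 4). Among 7 clear cell markers 2, Atp6v0a4 and Foxi1, rose in Ctl, also with any 1 array left out. None of the 7 passed in cKO or for the interaction (limma).

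The endothelial, fibroblast and smooth muscle counts depended on cKO sham replicate 2. Of 10 endothelial markers none passed in Ctl and 6 rose in cKO, and without that array 2 rose in each genotype. Of 10 fibroblast markers 1, Col5a1, rose in Ctl and 7 in cKO, and without it 6 rose in Ctl and 1 in cKO. The Ctl call of Col5a1 was lost in 10 of the 14 fits that left out 1 array. Of 9 smooth muscle markers 4 rose in cKO, 0 without that array or any 1 of 3 other cKO arrays (cKO sham replicate 3, cKO EDL replicates 2 and 4), while none rose in Ctl and Actg2, a smooth muscle actin, fell by 3.48 ± 0.36 in Ctl and 2.48 ± 0.42 in cKO (adjusted p = 1.87e-05 and 0.00175, limma). The part of these markers in the rises of Slc7a7, Slc7a6, Slc43a2, Slc43a3, Slc38a1 and Slc6a6 was not tested. Sperm and spermatid transcripts fell, 10 of 11 in Ctl and 6 of 11 in cKO, beside 4.57% and 4.74% of all genes.

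**Figure D4:**
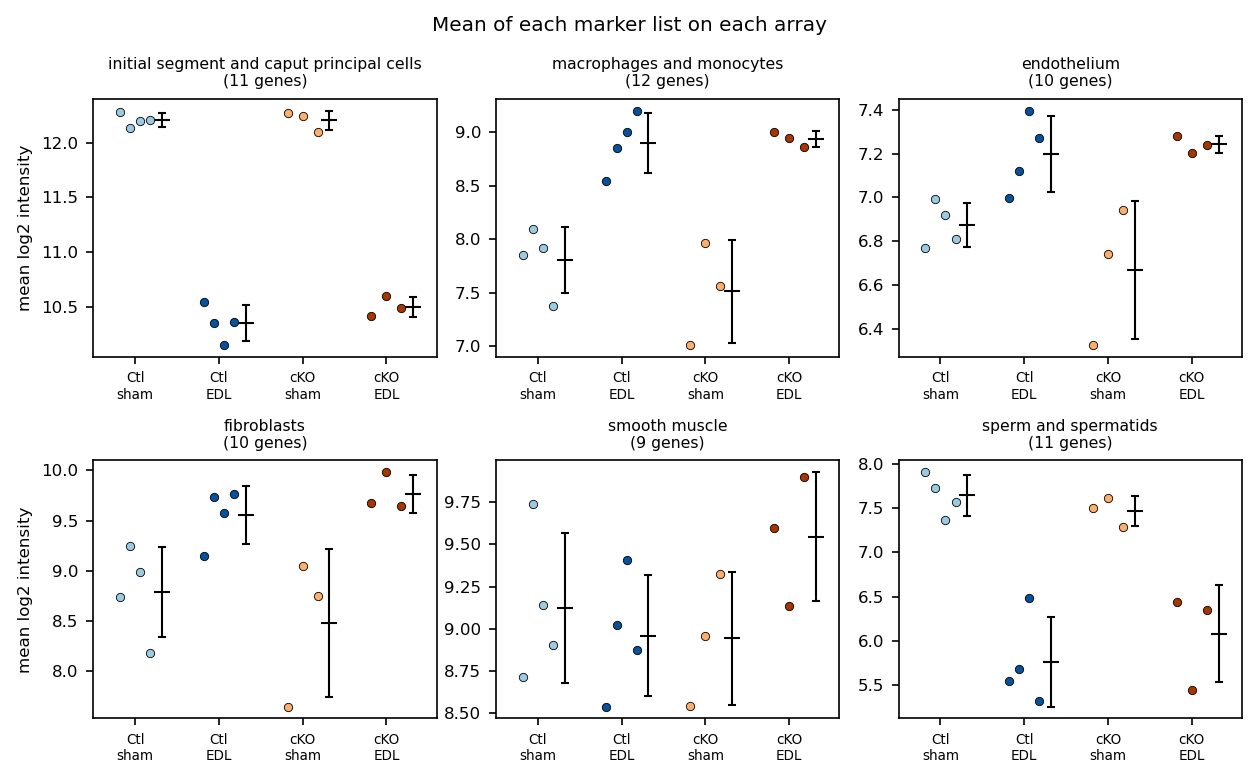
Mean log2 intensity of 6 marker lists on each array (points) by group, with mean and SD beside the points. The principal cell list separates sham from ligated arrays downward (12.10 or more against 10.60 or less), the macrophage list separates them upward, and cKO sham replicate 2 is the lowest array for macrophage, endothelium and fibroblast markers.

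Averaging the ligation change over both genotypes, a contrast added after the data were seen, used all 7 sham and 7 ligated arrays. It gave 7 members higher (9.58% of all genes) and 7 lower (8.6% of all genes), 21.9% of the members beside 18.2% of all genes. At an unadjusted p under 0.05 there were 22 members (34.4%, beside 29.4% of all genes). All 7 ligated arrays lay above all 7 sham arrays for 2 members (3.19% of all genes) and below them for 3 (4.35% of all genes). All 12 genes described above were among the 14. The 2 added genes were Slc3a2 (-0.18 ± 0.05, adjusted p = 0.0224, limma) and Slc6a8 (0.29 ± 0.08, adjusted p = 0.0273, limma). The Slc3a2 call was lost when replicate 2 of either cKO group was left out, and the Slc6a8 call without any 1 of 4 cKO arrays (replicates 2 and 3 of either surgery). The other 12 calls passed with any single array left out. Centred on array medians, the split was 6 higher to 9 lower, and the share of calls that were higher over all genes went from 52.7% to 36%, with 51.5% to 35.1% in cKO.

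**Figure D5:**
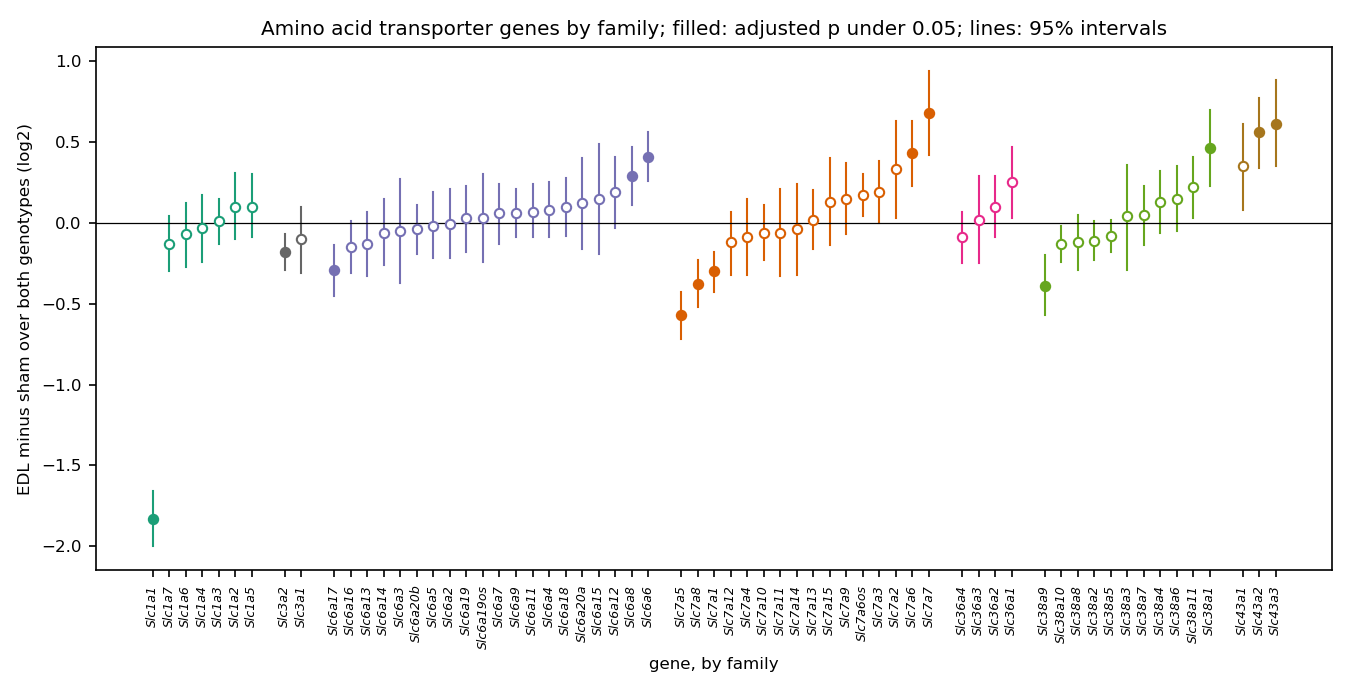
Change after ligation averaged over both genotypes (log2, points) with 95% intervals (lines) for 63 of the 64 genes, grouped by family and filled where the adjusted p was under 0.05. Slc1a1 stands at -1.83, the Slc7 genes range from -0.57 to 0.68, and none of the 4 Slc36 genes is filled.

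Between genotypes no member passed with limma in sham tissue, in ligated tissue or for the interaction, and neither did any of the 21929 genes (background 0.0% in each). In sham tissue the genotypes did not overlap for 0 members with cKO higher (2.82% of all genes) and 3 with cKO lower (2.08%), and in ligated tissue for 1 higher (3.11%) and 3 lower (2.63%). At an unadjusted p under 0.05 there was 1 member in sham tissue (1.56%, beside 3.65% of all genes), 5 in ligated tissue (7.81%, beside 6.08%) and 1 for the interaction (1.56%, beside 4.1%). In sham tissue the smallest p belonged to Slc38a4, a carrier of neutral amino acids. It read 9.82, 9.53, 9.82 and 9.82 on the Ctl sham arrays and 9.47, 9.51 and 9.46 on the cKO sham arrays, a difference of -0.27 ± 0.12 (adjusted p = 0.999, limma). Slc7a6 (-0.27 ± 0.13, and -0.15 without cKO sham replicate 2) and Slc7a4 (-0.28 ± 0.16, and -0.39 to -0.17 with any 1 array left out) followed.

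In ligated tissue the smallest p belonged to Slc7a3, another carrier of cationic amino acids, which was at background in all groups. It read 4.11, 4.05, 4.22 and 4.05 on the Ctl EDL arrays and 4.40, 4.76 and 4.47 on the cKO EDL arrays, with 4.29, 3.81 and 4.33 on the cKO sham arrays. The cKO EDL arrays were the highest of the 3 groups, and all lay below the background level. The difference was 0.44 ± 0.13 (adjusted p = 0.759, limma), and the interaction was 0.42 ± 0.18 (adjusted p = 0.985, limma), or 0.25 to 0.51 with any 1 array left out. The serotonin carrier Slc6a4 (-0.26 ± 0.11) and the glycine carrier Slc6a9 (-0.23 ± 0.10) followed in ligated tissue. The Slc6a9 difference was -0.11 without cKO EDL replicate 3, -0.04 as the mean of its probe sets and -0.47 in the second deposited table described at the end. For the interaction Slc7a10 (-0.30 ± 0.16) and Slc7a6os (0.20 ± 0.12, and 0.11 to 0.28 with any 1 array left out) followed. The 95% interval of a genotype difference had a median of 0.24 to either side over all genes, and that of a single gene was narrower or wider with its standard error.

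Of 20 carriers of amino acids and peptides outside the rule, 1 rose and 2 fell in Ctl (3 of 20, beside 7.88% of all genes), and 1 rose and 3 fell in cKO (4 of 20, beside 9.79% of all genes). Their medians were -0.05 in Ctl and -0.12 in cKO, and without cKO sham replicate 2 none of the 4 cKO calls passed. Slc15a3, a lysosomal carrier of histidine and small peptides, rose by 0.71 ± 0.16 in Ctl and 0.70 ± 0.19 in cKO (adjusted p = 0.0134 and 0.0285, limma). Slc17a7, which loads vesicles with glutamate, fell by 0.59 ± 0.13 in Ctl and 0.54 ± 0.15 in cKO (adjusted p = 0.00885 and 0.0294, limma). The remaining genes that fell were the mitochondrial carriers Slc25a29 in Ctl (-0.29) and Slc25a38 in cKO (-0.37) and the lysosomal Slc66a1 in cKO (-0.54). Of these calls in cKO, that of Slc25a38 was lost without replicate 2 of either surgery, that of Slc15a3 also without cKO sham replicate 4, that of Slc66a1 also without replicate 4 of either surgery, and that of Slc17a7 without any of these or cKO sham replicate 3. The Ctl call of Slc15a3 was lost without Ctl sham replicate 5 and that of Slc25a29 without Ctl EDL replicate 3. All 4 accessory proteins of these carriers missed the threshold in both genotypes (limma).

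Enzymes that use the transported amino acids included larger rises. Gatm, which makes the creatine precursor from arginine and glycine, read 7.38, 7.57, 7.68 and 7.30 on the Ctl sham arrays against 8.50, 8.39, 8.71 and 8.73 on the Ctl EDL arrays. The cKO values were 7.12, 7.52 and 7.5 against 8.74, 8.66 and 8.57. All ligated arrays were above all sham arrays. Gatm rose by 1.1 ± 0.11 in Ctl (2.15-fold, adjusted p = 1.78e-05, limma) and by 1.28 ± 0.13 in cKO (2.42-fold, adjusted p = 2.08e-05, limma), and was the 1 gene of 6 in the creatine list to pass in either genotype. That was 16.7% of the list, beside 7.88% of all genes in Ctl and 9.79% in cKO.

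Of 16 measured genes of arginine, ornithine and polyamine metabolism, 2 rose and 1 fell in Ctl, and 2 rose in cKO. That was 18.8% of the list in Ctl and 12.5% in cKO, beside 7.88% and 9.79% of all genes. Arg2, the mitochondrial arginase, rose by 0.42 ± 0.09 in Ctl and 0.59 ± 0.10 in cKO (adjusted p = 0.00881 and 0.00203, limma). Oat, which turns ornithine into a glutamate precursor, rose by 0.35 ± 0.09 and 0.56 ± 0.10 (adjusted p = 0.0255 and 0.00365, limma), though its Ctl call was lost without any 1 of 6 Ctl arrays (all but Ctl sham replicate 3 and Ctl EDL replicate 2). Azin1, an inhibitor of antizyme, fell by 0.34 in Ctl, a call lost without any 1 of 4 Ctl arrays (Ctl sham replicates 4 and 5, Ctl EDL replicates 2 and 3).

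Of 13 genes of glutamate, glutamine and aspartate metabolism, Nags, which makes N-acetylglutamate, was the 1 that passed in each genotype, with rises of 0.69 ± 0.12 and 0.52 ± 0.14 (adjusted p = 0.00276 and 0.0324, limma). Its cKO call was lost without cKO sham or cKO EDL replicate 2 or 4. Nags alone made up 7.69% of the list in each genotype, beside 7.88% of all genes in Ctl and 9.79% in cKO. Of 11 genes of cysteine, glutathione and taurine synthesis, Csad, a taurine enzyme, fell by 0.35 in Ctl and Cth, which makes cysteine, rose by 0.63 in cKO. That was 9.09% of the list in each genotype, beside the same shares of all genes. The Csad call was lost without any 1 of 7 arrays (all Ctl arrays but Ctl sham replicate 3 and Ctl EDL replicate 2, and cKO sham replicate 3) and the Cth call without cKO sham or cKO EDL replicate 2 or 4. Of 26 measured genes of amino acid sensing by mTORC1, the leucine sensor Sesn1 rose in Ctl (0.29) and Castor2 in cKO (0.38). That was 3.85% of the list in each genotype, below the share of all genes. The Sesn1 call was lost without any 1 of 9 arrays (all Ctl arrays but Ctl EDL replicate 3, and cKO replicate 4 of either surgery), and the Castor2 call without cKO EDL replicate 2 or cKO sham replicate 4. None of 11 genes of branched-chain and aromatic amino acid breakdown passed in either genotype (limma).

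Targets of ATF4, the transcription factor of the amino acid response, moved both ways. Of 24 that are no members, 1 rose and 4 fell in Ctl, and 5 rose and 3 fell in cKO, with medians of -0.02 and 0.09. That was 20.8% of the list in Ctl and 33.3% in cKO, beside 7.88% and 9.79% of all genes. Without replicate 2 of cKO sham the cKO counts were 1 and 1. Mthfd2, a mitochondrial folate enzyme, rose by 0.46 ± 0.08 and 0.57 ± 0.09 (adjusted p = 0.00178 and 0.00106, limma). Vldlr, a lipoprotein receptor, fell by 1.62 ± 0.16 and 1.69 ± 0.19 (adjusted p = 1.17e-05 and 3.62e-05, limma). Atf4 itself fell by 0.29 ± 0.07 and 0.28 ± 0.08 (adjusted p = 0.0164 and 0.0357, limma), calls lost without Ctl EDL replicate 5 and without any 1 of 5 cKO arrays (all but cKO sham replicate 4).

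The size of the changes of the 12 genes that passed depended on the deposited table. In a second deposited table of the same arrays they were 1.45 to 1.93 times as large, above 1.5 times in 20 of 24 values, all in the same direction. Slc1a1 changed there by -3.20 in Ctl and -3.19 in cKO.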

How the data were processed

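RNA (100 ng per array) was measured on 14 single-colour arrays. The deposited values were log2 intensities of 22206 probe sets (2.33 to 13.91). Partek 7.0, RMA and Affymetrix Expression Console were used, in no stated order or role, per the submitters' processing notes. The authors' deposited comparison table gave a p-value and a ratio per probe set. Its ratios matched the log2 table within 8e-05 log2, and its p-values were used for counts only. Its 14 columns of array values were not used, because their identifiers differed from those of their lines. Another deposited table, also log2 and of unstated scale and normalization (same array r of 0.945 or more, other arrays 0.606 or less), served as an alternative.

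Probe sets kept the deposited symbols, updated by RefSeq accession where matched (20456), and the probe set with the highest mean represented a gene. One limma model of 4 group means over 21929 genes (10 residual and 4.16 prior degrees of freedom) gave 5 contrasts, and the average over genotypes was added after the data were seen. All tests were two-sided. With 1 scan date for all arrays there was no batch to compare. Background was the 95th percentile (5.31) of 1463 olfactory and vomeronasal receptor genes.

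The members and lists were chosen with earlier results of these data known. Named genes were members that passed or, where none did, the 3 smallest p, the heavy chains with 8 light chains, up to 4 genes of each other list that passed, and Arl13b. Not every gene the rules cover is named here. The 10 largest changes without overlap in each comparison of surgeries have the value of every array. The labels do not state that a replicate number marks a mouse, and correlations of same-numbered arrays ran from -0.00158 to 0.198. An array correlated best with its own number for 4 of 7 numbers, which does not settle whether the numbers mark mice. The consensus correlation within a number was 0.109. The main model had no block because the authors' methods state none, and a block was run as an alternative. Alternatives covered normalization, centring, variance, weights, filters, blocks and leaving out each array. Promoter windows were RefSeq's (GRCm38.p6), and for the build behind the array annotation the sources used here give no name. The work used R 4.3.3, limma 3.58.1, Python 3.11.15, pandas 2.3.3, numpy 2.4.6 and matplotlib 3.10.9.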

Additional observations from a re-analysis of the deposited data

Results flagged for a closer look

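In Ctl sham replicate 3, Slc38a4 (9.53) and Slc6a8 (9.14) lay far below the other 3 arrays of their group, which read 9.82 for Slc38a4 and 9.52 to 9.55 for Slc6a8. Among 25 genes, 50 groups of 4 arrays were examined and 2 had such an array (4.0%), where chance gives about 1 in 20. Both were on the same array, and the groups shared the same Ctl arrays, so this rate does not say whether that array differed.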

How the results depend on the processing

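Of 1435 values of 61 gene results under an alternative, 1312 kept their direction and side of the threshold, 83 lost the threshold, 25 passed it and 15 changed sign. Slc1a1 and Slc7a5 passed in both genotypes under all alternatives run. The Ctl count of 2 higher became 1 with centred arrays, 5 with the second table, with trended robust variance, with a random replicate block or with a filter on low values, 4 with array weights and 0 with the authors' p-values (0 to 5 with 1 array left out). The 6 lower in Ctl became 3 with only the arrays compared (2 to 5 with 1 array left out). In cKO the 5 higher became 2 with only the arrays compared and 3 with the authors' p-values (1 to 5 with 1 array left out), and the 4 lower became 2 with only the arrays compared (2 to 4 with 1 array left out). Pairing arrays by number with mouse as a fixed replicate block gave 2 higher and 5 lower in Ctl and 5 and 5 in cKO, where the Ctl calls of Slc38a1, Slc6a17 and Slc6a6 were lost and Slc43a3 and Slc7a7 in Ctl and Slc38a9 in cKO passed. With only the arrays compared, the Ctl calls of Slc38a1, Slc38a9, Slc6a17 and Slc7a1 and the cKO calls of Slc43a3, Slc6a6, Slc7a1, Slc7a6 and Slc7a8 were lost. Slc3a2 in cKO passed with trended robust variance (adjusted p = 0.0237). Over all genes, the cKO count of 2146 became 1063 when replicate 2 of cKO sham was left out, 1305 when that of cKO EDL was, and 1375 with only the arrays compared. The sign changes were all in results that had not passed. For Slc7a11 in Ctl they were 0.01 and 0.10 without replicate 3 of Ctl sham or Ctl EDL (-0.20 to 0.10 with 1 array left out), and in cKO 0.01 with array weights and, with 1 array left out, -0.18 to 0.07 (0.07 and 0.04 above 0). For Slc7a13 in Ctl they were 0.02 with a second quantile normalization and 0.01 to 0.09 with 1 of 4 Ctl arrays left out (0.02, 0.07, 0.09 and 0.01, from a range of -0.08 to 0.09), and in cKO -0.02 with centred arrays. Without cKO sham replicate 2 Slc3a1 in cKO gave 0.12 (-0.22 to 0.12 with 1 array left out). For Slc7a9 in cKO the values were 0.01 with array weights and, with 1 array left out, 0.13 and 0.0 (-0.11 to 0.13). The cause was not tested. The 95% interval had a median over all genes of 0.22 to either side in Ctl, 0.26 in cKO and 0.34 for the interaction, and single genes had narrower or wider ones.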

Other observations

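Averaged over both genotypes, the contrast added after the data were seen, genes of other steps of amino acid use were counted beside 9.58% of all genes higher and 8.6% lower. In the creatine list Ckmt1, a mitochondrial creatine kinase, rose beside Gatm, so that 2 of 6 genes were higher. Of 13 genes of glutamate, glutamine and aspartate metabolism 2 rose and 2 fell, and of 24 ATF4 targets that are no members 7 rose and 4 fell. The 16 measured genes of arginine, ornithine and polyamine metabolism held 3 that rose and 1 that fell. Cysteine, glutathione and taurine synthesis had 1 of 11 higher and 2 lower, and branched-chain and aromatic breakdown 1 of 11 higher. Carriers outside the rule had 1 of 20 higher and 4 lower, and none of the 4 accessory proteins passed. The 26 measured genes of amino acid sensing by mTORC1 held 3 that rose, Sesn1, Castor1 and Castor2, and none that fell. Only the share that rose was near that of all genes.

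The second probe set of the glycine carrier Slc6a9 was at background (group means of 3.95 to 4.12), whereas the one used read 10.14 to 10.37. Slc6a20a and Slc6a20b are closely related paralogs, whose values are uncertain for that reason.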
